A study of Mus musculus with 2 samples.

Results

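Neutrophils carry their antimicrobial proteins in granules that are filled in a fixed order as the cell matures. Azurophil granule genes such as Mpo and Elane are transcribed in promyelocytes, specific granule genes such as Camp, Ngp and Ltf in myelocytes, and gelatinase granule and late genes such as Retnlg in band and segmented cells. The NADPH oxidase, which makes superoxide, is assembled from a membrane pair (Cybb, Cyba) and cytosolic subunits (Ncf1, Ncf4) and is shared with monocytes and macrophages. Because transcription of each set stops when its stage has passed, the granule RNAs of a neutrophil are commonly read as a record of its stage. The 33 genes described here were taken by symbol from a list of neutrophil granule, maturity and oxidase genes. All 33 were found among the 32285 genes of the deposited files, as 4 azurophil granule genes, 8 specific granule genes, 17 late and maturity genes and 4 oxidase genes.

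The study sequenced single CD45+ cells, that is leukocytes, from subcutaneous B16F10-OVA tumours of mice. B16F10-OVA is a mouse melanoma line that expresses the model antigen ovalbumin. Mice were injected with UDSP-Hep or, as the control, with the buffer PBS, every other day from day 10 to day 16, and tumours were taken on day 19. The labels do not spell out the name UDSP-Hep and give no strain, sex or age for the mice. For each group the cells of 3 tumours were pooled and 10000 were loaded for a 10x Genomics library, so a group is 1 library. Its animals cannot be separated, and treatment and library cannot be told apart. No p-value is given anywhere. All intervals are exact, at 95%, and cover counting error only.

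The PBS library held 7379 barcodes with 74685827 UMIs (unique molecular identifiers, which count RNA molecules) and the UDSP-Hep library 7872 barcodes with 64241224 UMIs. After filters on genes, UMIs, mitochondrial share and doublets, 6717 and 7194 cells remained, of which 20 barcodes occurred in both libraries and 0 among the neutrophils. Cells were assigned to a class by the score of marker genes, and none of the 33 genes was a marker. Neutrophils were gated by 8 genes (S100a8, S100a9, Csf3r, Cxcr2, Il1r2, Mmp9, Clec4d and Hcar2). The sort sets what is counted, so shares are of CD45+ cells. The gate found 51 neutrophils in the PBS library, 0.759% (0.566 to 0.997%) of cells, and 736 in the UDSP-Hep library, 10.2% (9.54 to 10.95%). Summed over cells they held 121179 and 1797520 UMIs, with medians of 2253 and 2353 UMIs per cell and median mitochondrial shares of 0.621% and 0.378%. The PBS values therefore rest on far fewer molecules and have the wider intervals. All 8 markers were detected in the neutrophils of both libraries, whereas Ly6g, the usual surface marker of mouse neutrophils, had 4 and 13 UMIs. Markers of NK cells, plasma cells, basophils and mast cells, and red cells had 0 UMIs in the PBS neutrophils. In the UDSP-Hep neutrophils all 7 T cell and all 6 NK cell markers had a UMI, at summed levels of 53.4 and 48.4 CPM against 4019 and 4117 CPM in those cells. Monocyte markers summed to 825 and 1212 CPM in neutrophils against 10694 and 11364 CPM in gated monocytes, where CPM is the UMIs of a gene scaled to 1000000 UMIs of its class. Macrophage markers summed to 363 and 214 CPM in neutrophils, against 11859 and 10991 CPM in gated macrophages. A UMI of these markers was found in 17.6% of PBS and 28.9% of UDSP-Hep neutrophils. The part of other cell types in the member values was not tested.

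A neutrophil was kept only up to 4 times the median UMI count of its class, which took out 2 PBS cells and 5 UDSP-Hep cells. That limit was set after the data had been seen and it bears on several genes below. Values without it are given where it changes a call or a direction.

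The first comparison set the members in UDSP-Hep neutrophils against those in PBS neutrophils. A gene was called higher or lower where its CPM differed by 1.5-fold or more and the interval of the ratio left out 1. It was tested only with 20 or more UMIs over both libraries. Of the 33 members 27 had that many. Of these, 3 were called higher in UDSP-Hep and 5 lower, and 19 were not called. Over all 5938 genes tested, 6.47% counted as higher and 4.68% as lower. The median log2 ratio was 0.08 for the 27 members and 0.10 for all genes tested. The higher members were Lcn2, Cstdc4 and Ncf1, and the lower ones Pglyrp1, Retnlg, Padi4, Wfdc17 and Mgst1. By group, 1 of 6 tested specific granule genes was higher and 1 lower, 1 of 17 late genes was higher and 4 lower, and 1 of 4 oxidase genes was higher. With the 7 cells above the depth limit put back, 29 members were tested, 4 were called higher and 13 lower. The shares of all genes called in that setting were not counted. The 6.47% and 4.68% above hold only with the limit.

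**Figure D1:**
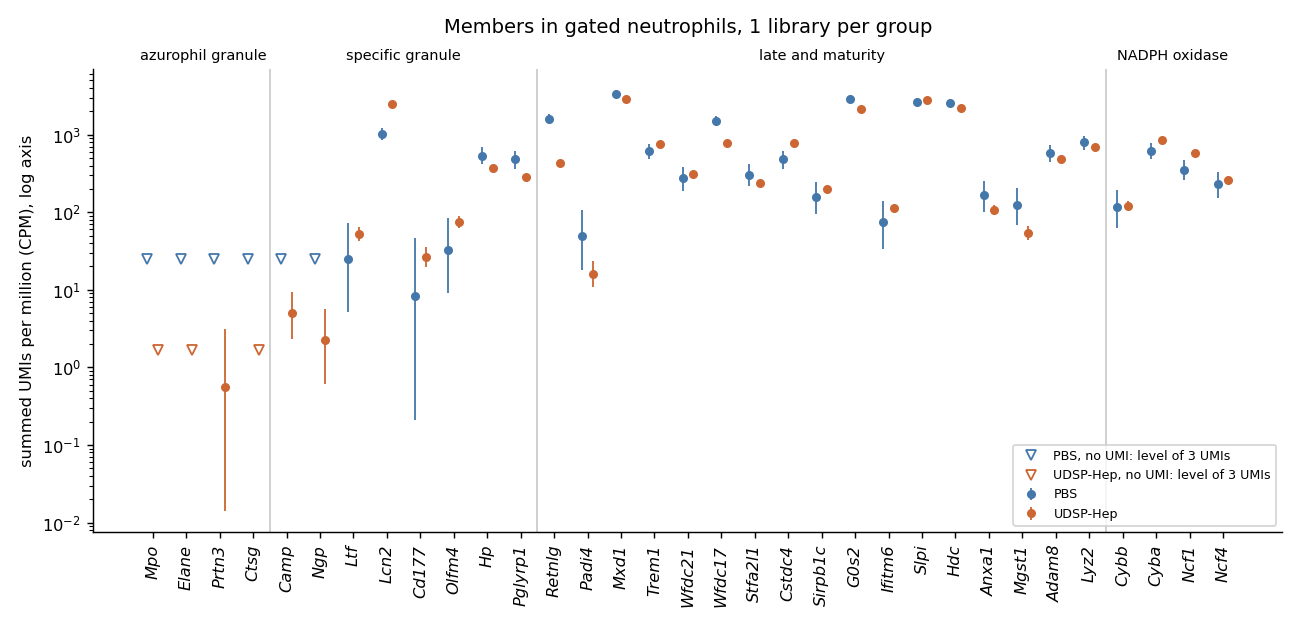
Level of each of the 33 genes in gated neutrophils, as CPM on a log axis, for the PBS library (51 cells) and the UDSP-Hep library (736 cells), with exact 95% Poisson intervals. Open triangles mark genes with no UMI, drawn at the level that 3 UMIs would give (24.8 and 1.67 CPM). Azurophil granule genes, Camp and Ngp lie at the bottom, and Retnlg shows the widest gap between libraries among the genes with at least 20 UMIs in each.

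Azurophil granule RNA was all but undetected in neutrophils. Mpo (myeloperoxidase), Elane (neutrophil elastase) and Ctsg (cathepsin G, a serine protease) had 0 UMIs in 51 PBS and in 736 UDSP-Hep neutrophils, which allows shares of cells with a UMI of up to 5.88% and 0.408%, taking 3 cells of the total as the limit of a count of 0. Prtn3 (proteinase 3, another serine protease) had 0 and 1 UMI. In the same libraries Prtn3 was found in monocytes, with 300 UMIs (14.5 CPM) in PBS and 149 UMIs (12.1 CPM) in UDSP-Hep. Ctsg was highest in cells gated as basophils and mast cells, at 14.9 and 12.5 CPM. Of the listed genes of progenitors and the azurophil stage, some were likewise near zero in neutrophils and others were not. Ms4a3, a marker of granulocyte and monocyte progenitors, and the stem cell marker Cd34 had 0 UMIs in both libraries. The serine protease gene Prss57 had 0 and 1 UMI, as did Kit, the stem cell factor receptor. Of the 9 genes of that list 3 had enough UMIs, and of these 0 counted as higher and 0 as lower. Srgn, which encodes the granule proteoglycan serglycin and remains expressed in mature cells, stood at 11388 and 8881 CPM. Of 6 cell division genes only Tubb5, a tubulin gene, reached 20 UMIs, at 16.5 and 46.2 CPM (ratio 2.80, 0.750 to 23.5).

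Specific granule genes split into a group that was near zero and a group that was plainly expressed. Camp (the cathelicidin antimicrobial peptide) had 0 UMIs in PBS neutrophils and 9 in UDSP-Hep neutrophils (5.01 CPM). Ngp (neutrophilic granule protein) had 0 and 4 UMIs, and Ltf (lactoferrin, which binds iron) 3 and 95 UMIs, or 24.8 and 52.9 CPM (ratio 2.13, 0.709 to 10.5). These are low levels in both libraries. Cd177, a surface antigen of neutrophils, had 1 and 48 UMIs, and Olfm4, which encodes the granule protein olfactomedin 4, 4 and 134 UMIs. The ratios of Ltf, Cd177 and Olfm4 lay above 2 but their intervals included equality. Olfm4 was called higher with cells of at least 1000 UMIs, without the richest cell of each library and without the depth limit (ratio 3.34, 1.28 to 12.4). Ltf was called higher without the richest cell of each library. Cd177 turned direction without the depth limit (ratio 0.324, 0.210 to 0.515) and was then called lower.

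The genes of Camp, Ngp and Ltf lie on chromosome 9 of GRCm38, with gaps of 570 kb between Camp and Ngp and 596 kb between Ngp and Ltf. In the annotation Camp (ENSMUSG00000038357) runs from 109847379 to 109849617 on the minus strand, Ngp (ENSMUSG00000032484) from 110419747 to 110423012 and Ltf (ENSMUSG00000032496) from 111019271 to 111042767, both on the plus strand. C/EBP factors, above all C/EBP epsilon, are known to drive this set of genes. The stretches just before these genes are shown because the 3 genes mark the specific granule stage and were used to find the cells described next. They are RefSeq promoter windows of build GRCm38.p6, read 5′ to 3′ on the strand of the gene and ended before the first base annotated as transcribed. Capitals mark a match to the C/EBP letters TTGCNNAA on either strand.
Camp, chr9:109849618-109849706, minus strand: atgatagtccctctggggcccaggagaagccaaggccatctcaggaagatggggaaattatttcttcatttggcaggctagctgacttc
Ngp, chr9:110419558-110419746, plus strand: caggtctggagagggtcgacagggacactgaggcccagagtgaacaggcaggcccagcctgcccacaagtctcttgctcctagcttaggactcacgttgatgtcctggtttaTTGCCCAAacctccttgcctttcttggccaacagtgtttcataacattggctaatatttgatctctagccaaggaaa
Ltf, chr9:111019042-111019270, plus strand: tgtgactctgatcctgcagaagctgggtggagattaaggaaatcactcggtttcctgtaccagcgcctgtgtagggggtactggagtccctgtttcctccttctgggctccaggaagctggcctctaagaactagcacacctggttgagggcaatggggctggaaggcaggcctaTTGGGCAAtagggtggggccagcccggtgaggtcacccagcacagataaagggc
Ngp and Ltf each show 1 match and Camp 0 in these stretches, which differ in length (189, 229 and 89 bases). In the whole 250-base windows Ngp has 2 matches, Ltf 1 and Camp 0. The further Ngp match starts 11 bases before the RefSeq start. Of the 31 whole 250-base windows before a RefSeq start of 30 members, 8 held TTGCNNAA, against 9.56% of all 32851 windows. The PU.1 letters AGGAAGT, searched on both strands as well, were in 8 of the 31 member windows and in 7.69% of all. The C/EBP letters were found for Adam8, Anxa1, Lcn2, Ltf, Mgst1, Ngp, Retnlg and Slpi. The PU.1 letters were found for Ctsg, Elane, Ifitm6, Lyz2, Mpo, Olfm4, Prtn3 and Trem1. A match of letters is a description of the window and no evidence of binding.

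Before the depth limit a single cell held most of the Camp, Ngp and Ltf UMIs of the gated neutrophils, 99.6% in PBS and 65.9% in UDSP-Hep, where 52 gated cells had at least 1. In all, 1 of 53 gated PBS cells and 2 of 741 gated UDSP-Hep cells had 10 or more UMIs of the 3 genes together, a minimum chosen after seeing the data. These are 1.89% (0.0478 to 10.1%) and 0.270% (0.0327 to 0.972%) of gated cells. The PBS cell had 15750 UMIs, among them 957 of Camp, 625 of Ngp and 206 of Ltf, 11.4% of its RNA in all. It also held 250 UMIs of Lcn2, 116 of Chil3 and 12 of Fcnb, further specific granule genes, and 9 of Cebpe, which encodes C/EBP epsilon. Of azurophil genes it had 1 UMI of Mpo, 1 of Elane and 3 of Prtn3, and of Retnlg 0. One UDSP-Hep cell of 10797 UMIs held 15 of Camp, 164 of Ngp and 64 of Ltf, together with 168 of Retnlg and 58 of Mmp8, a collagenase gene. The other, of 10355 UMIs, held 2 of Camp, 16 of Ngp, 0 of Ltf and 495 of Retnlg. The PBS cell thus combined the Camp, Ngp and Ltf set without Retnlg, and both UDSP-Hep cells combined Ngp with Retnlg. Outside the gate 3 further UDSP-Hep cells had as many UMIs, of Ltf alone: 10 and 20 in cells scored as T cells and 10 in a cell of 63952 UMIs scored highest as a macrophage.

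All 3 of these cells lay above the depth limit. The other PBS cell above it, of 47707 UMIs, had 254 UMIs of Retnlg together with 565 of Cd74, 217 of H2-Ab1 and 147 of Ccl17, genes of antigen-presenting cells that were picked for mention after their values were seen. The remaining 3 UDSP-Hep cells above the limit had 0 UMIs of Camp, Ngp, Ltf, Lcn2 and Retnlg, and 11, 133 and 1 UMIs of S100a9. With these 7 cells put back, Camp stood at 5205 CPM in PBS and 14.0 CPM in UDSP-Hep, Ngp at 3390.4 and 99.4 CPM, and Ltf at 1132 and 85.9 CPM. The lower level in UDSP-Hep then counts as a call for all 3 genes, and 957 of the 961 PBS UMIs of Camp are from 1 cell. The direction for Ltf is thereby opposite to that with the limit.

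**Figure D2:**
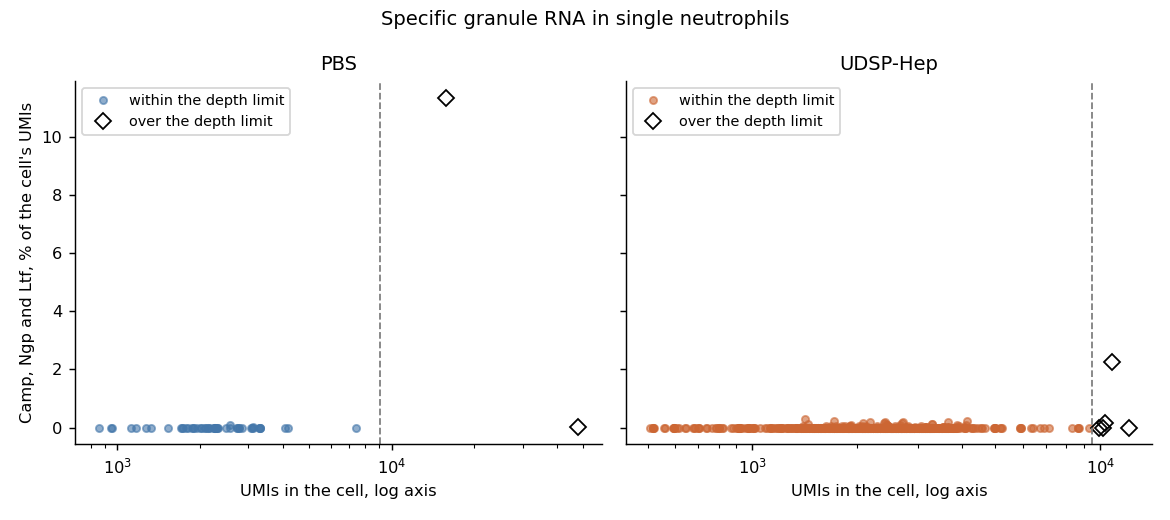
UMIs of Camp, Ngp and Ltf together as a percentage of all UMIs of a cell (vertical axis) against the UMIs of the cell (log axis), for each gated neutrophil of the PBS library (left) and the UDSP-Hep library (right). Dashed lines mark the depth limits of 9064 and 9480 UMIs and open diamonds the cells above them. A single PBS cell reaches 11.4% and a single UDSP-Hep cell 2.25%.

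Lcn2 (lipocalin 2, which withholds iron from bacteria by binding siderophores) was the specific granule gene that counted as higher. It stood at 1023 CPM (851 to 1220.1) in PBS and 2490.1 CPM (2418 to 2564) in UDSP-Hep, a ratio of 2.43 (2.04 to 2.93). The share of neutrophils with a Lcn2 UMI was nearly the same, 37.3% (24.1 to 51.9%) and 36.5% (33.1 to 40.1%). In these cells the difference in level therefore lay in the UMIs per positive cell. The PBS interval is wide and allows a difference in share as well. With every cell thinned to 1000 UMIs the shares were 27.1% and 30.6%, against 0% and 0.432% in lymphocytes, which should lack the gene. A single cell supplied 34.7% of the PBS UMIs of Lcn2. Without the richest cell of each library the log2 ratio was 1.84 in place of 1.28. With the cells above the depth limit put back it was 0.24 and no longer a call, since the PBS cell rich in Camp alone added 250 UMIs.

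Hp and Pglyrp1 pointed the other way. Hp (haptoglobin, which binds free haemoglobin) stood at 536 CPM in PBS and 367 CPM in UDSP-Hep, a ratio of 0.685 (0.530 to 0.897) that misses the fold required. Hp was uncalled in 9 of 14 alternatives and called lower with the stricter gate, the Leiden cluster, thinned cells, equal cell weights and median-of-ratios scaling. Pglyrp1 (a peptidoglycan recognition protein that acts on bacteria) counted as lower, at 479 and 287 CPM (ratio 0.599, 0.456 to 0.7995). The share of cells with a Pglyrp1 UMI after thinning was 18.8% and 19.5%, near the 17.1% and 13.2% found in lymphocytes, so the share alone does not mark neutrophils. The log2 ratio of Pglyrp1 was -0.74, and -0.16 with cells thinned to 1000 UMIs, where it is no call. Without the richest cell of each library it was -0.38, likewise no call. The 10 further specific granule genes listed gave 7 with enough UMIs, of which 2 counted as higher and 0 as lower. These were Chil3 (a chitinase-like protein), at 24.8 and 77.9 CPM, and the leukotriene B4 receptor gene Ltb4r1, at 66.0 and 206 CPM. Chil3 rests on 3 PBS UMIs. Mmp8 stood at 140.3 and 108 CPM (ratio 0.769, 0.468 to 1.35).

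Among the late and maturity genes Retnlg showed the largest difference. Retnlg encodes a resistin-like protein typical of circulating mature neutrophils. It stood at 1601 CPM (1384 to 1843) in PBS and 435 CPM (405 to 467) in UDSP-Hep neutrophils, a ratio of 0.272 (0.232 to 0.320). The share of neutrophils with a Retnlg UMI was 39.2% (25.8 to 53.9%), or 20 of 51 cells, against 13.7% (11.3 to 16.4%), or 101 of 736 cells. The intervals of the shares do not overlap, and after thinning to 1000 UMIs the shares were 33.3% and 11.2%, against 0% and 0.275% in lymphocytes. A single PBS cell held 38.1% of the PBS UMIs. Retnlg counted as lower under every alternative tried, with log2 ratios from -2.06 to -1.47, the latter without the richest cell of each library.

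Wfdc17, Padi4 and Mgst1 also counted as lower. Wfdc17 (a small secreted protein with a protease inhibitor fold) stood at 1518 and 782 CPM (ratio 0.515, 0.441 to 0.604). It was not particular to neutrophils: its level in monocytes was 1118 and 714 CPM, and the difference had the same direction there. Padi4 (the arginine deiminase that citrullinates histones in extracellular traps) had 6 and 29 UMIs, or 49.5 and 16.1 CPM (ratio 0.326, 0.133 to 0.960). Mgst1 (a microsomal glutathione transferase) had 15 and 97 UMIs, or 124 and 54.0 CPM (ratio 0.436, 0.252 to 0.809). The calls of Padi4 and Mgst1 rest on few PBS UMIs and were lost without the richest cell of each library, at log2 ratios of -1.14 and -0.86. The call of Wfdc17 was lost with the cells above the depth limit put back, at a log2 ratio of -0.57.

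Cstdc4, a stefin-type inhibitor of cysteine proteases, was the only late gene that counted as higher, at 479 and 771 CPM (ratio 1.61, 1.24 to 2.13). Cstdc4 was found in 23.5% of neutrophils in each library. It stayed a call in 11 of 14 alternatives, and median-of-ratios scaling, a fold of 2 and weighing every cell the same ended it. Of its 31-base stretches 16.8% occur in other genes of the annotation, and 41.6% for its neighbour Stfa2l1, 22.3 kb away on chromosome 16, so counts of both are uncertain. Stfa2l1 stood at 305 and 237 CPM (ratio 0.776, 0.554 to 1.12). It was called lower with equal cell weights, and turned to 1.22 (0.869 to 1.75), no call, without the depth limit.

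The most widely detected late genes differed little. Mxd1 (a MAX dimerization repressor that opposes MYC) stood at 3383 and 2909 CPM (ratio 0.860, 0.777 to 0.953) and had a UMI in 94.1% and 83.4% of neutrophils. Slpi (secretory leukocyte protease inhibitor, which blocks elastase) stood at 2641 and 2794 CPM (ratio 1.06, 0.945 to 1.19). Hdc (histidine decarboxylase, which makes histamine) stood at 2591 and 2218 CPM (ratio 0.856, 0.763 to 0.963). G0s2 (an inhibitor of triglyceride lipase) stood at 2913 and 2132 CPM (ratio 0.732, 0.656 to 0.818), and it counted as lower only under median-of-ratios scaling. That scaling moved the median gene by 0.18 on the log2 scale. The ratio of each of these 4 genes lay within the 1.5-fold range. Without the depth limit Mxd1 turned to 1.23 (1.12 to 1.37), Hdc to 1.23 (1.097 to 1.38) and G0s2 to 1.016 (0.914 to 1.13), none of them a call.

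Trem1 (a receptor that amplifies inflammatory signals) stood at 611 and 763 CPM (ratio 1.25, 0.989 to 1.60), and Wfdc21 (another small secreted protein of that inhibitor family) at 272 and 312 CPM (ratio 1.15, 0.807 to 1.68). Adam8 (a membrane metalloprotease) stood at 578 and 488 CPM, Sirpb1c (a signal-regulatory protein) at 157 and 196 CPM, and Ifitm6 (an interferon-induced transmembrane protein) at 74.3 and 112 CPM. Of Sirpb1c, 56.9% of 31-base stretches occur in other genes, mainly its Sirpb1 relatives, so its count is uncertain. Anxa1 (annexin A1, an anti-inflammatory protein) stood at 165 and 106 CPM (ratio 0.644, 0.405 to 1.08). Lyz2 (lysozyme) stood at 792 and 701 CPM, and 32.8% of its 31-base stretches are shared with Lyz1. None of these 7 was called in the main setting, but 6 of them were without the depth limit. Trem1 (ratio 1.67, 1.34 to 2.11) and Sirpb1c (1.86, 1.18 to 3.13) were then called higher. Wfdc21 (0.392, 0.331 to 0.465), Ifitm6 (0.340, 0.268 to 0.434), Anxa1 (0.446, 0.330 to 0.613) and Lyz2 (0.406, 0.360 to 0.459) were called lower, for Wfdc21 and Ifitm6 with the direction turned. Anxa1 was uncalled in 8 of 14 alternatives and called lower in the others. Ifitm6 was called higher with the stricter gate, opposite to its call without the depth limit.

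The 17 further late neutrophil genes listed gave 14 with enough UMIs, of which 3 counted as higher and 0 as lower. These were the formyl peptide receptor genes Fpr1, at 149 and 241 CPM, and Fpr2, at 404 and 719 CPM (ratio 1.78, 1.34 to 2.42), and the metal transporter gene Slc11a1, at 90.8 and 283 CPM (ratio 3.12, 1.73 to 6.29). Il1b stood at 9292 and 12535 CPM, Ccl3 at 8871 and 7785 CPM, Cxcr4 at 1849 and 1785 CPM and Cd274, the gene of the checkpoint ligand PD-L1, at 1700.0 and 1570.5 CPM. The remaining 11 tested genes of that list were called neither higher nor lower.

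The oxidase subunits were expressed in both libraries. Ncf1 (p47phox, the organizer subunit) counted as higher in UDSP-Hep, at 355 CPM (257 to 478) and 577 CPM (542 to 613), a ratio of 1.63 (1.20 to 2.26). After thinning it was found in 20.8% and 35.6% of neutrophils, against 4.01% and 2.59% of lymphocytes. The log2 ratio of Ncf1 was 0.70 and ranged from 0.45 to 0.96 over the alternatives. It stayed a call in 11 of 14, and median-of-ratios scaling, a fold of 2 and the cells above the depth limit ended it. Cyba (p22phox) stood at 619 and 865 CPM (ratio 1.40, 1.11 to 1.79), Ncf4 (p40phox) at 231 and 258 CPM (ratio 1.12, 0.763 to 1.70) and Cybb (gp91phox, the catalytic subunit) at 116 and 122 CPM (ratio 1.05, 0.615 to 1.96). Without the depth limit Cybb stood at 390.0 and 136 CPM (ratio 0.348, 0.267 to 0.458) and was called lower. Cyba is also expressed by lymphocytes, at 564 and 544 CPM, so that its share of 43.8% and 51.2% of thinned neutrophils is near the 39.2% and 40.5% of lymphocytes. Of 9 further oxidase genes 7 had enough UMIs, of which 0 counted as higher and 0 as lower, and Rac2, the small GTPase of the oxidase, stood at 578 and 584 CPM. Of 6 oxidant defence genes 5 had enough, and Sod2 (mitochondrial superoxide dismutase), at 223 and 556 CPM (ratio 2.49, 1.70 to 3.80), and Txnrd1 (thioredoxin reductase), at 157 and 253 CPM, counted as higher.

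Per cell, the 33 genes made up a median of 2.14% of UMIs in PBS and 1.74% in UDSP-Hep neutrophils, with a median of 9 of the 33 genes detected in each. Late genes took most of it, 1.83% and 1.503% of summed UMIs. Specific granule genes took 0.210% and 0.331%, and oxidase genes 0.132% and 0.182%. The highest cell reached 7.07% in PBS and 9.62% in UDSP-Hep, and the lowest cell in each library had none of the 33.

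Neutrophils with a Retnlg UMI differed from those without in other members. The split was made after seeing the data, and the shares are a description of cells of 1 library. Cells with and without a Retnlg UMI had median UMI counts of 2499 and 2331 in UDSP-Hep. In UDSP-Hep, 686 neutrophils of at least 1000 UMIs were thinned to that depth, of which 77 had a Retnlg UMI and 609 had not. Hp was found in 49.4% of the former and 16.9% of the latter, and Pglyrp1 in 49.4% and 15.8%. Anxa1 was found in 27.3% and 5.25%, Mgst1 in 18.2% and 4.11%, and Adam8 in 53.2% and 27.9%. Mmp8, which is no member, was found in 27.3% and 2.96%. The oxidase genes did not follow it: Ncf1 was found in 33.8% and 35.8%, Cyba in 48.1% and 51.6%, and Ncf4 in 23.4% and 21.3%. Lcn2 was found in 39.0% (28.0 to 50.8%) and 29.6% (26.0 to 33.4%), with overlapping intervals. Of the activation genes, Ccl3 was found in 29.9% of cells with Retnlg and 76.5% of those without, and Cd274 in 28.6% and 58.3%.

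**Figure D3:**
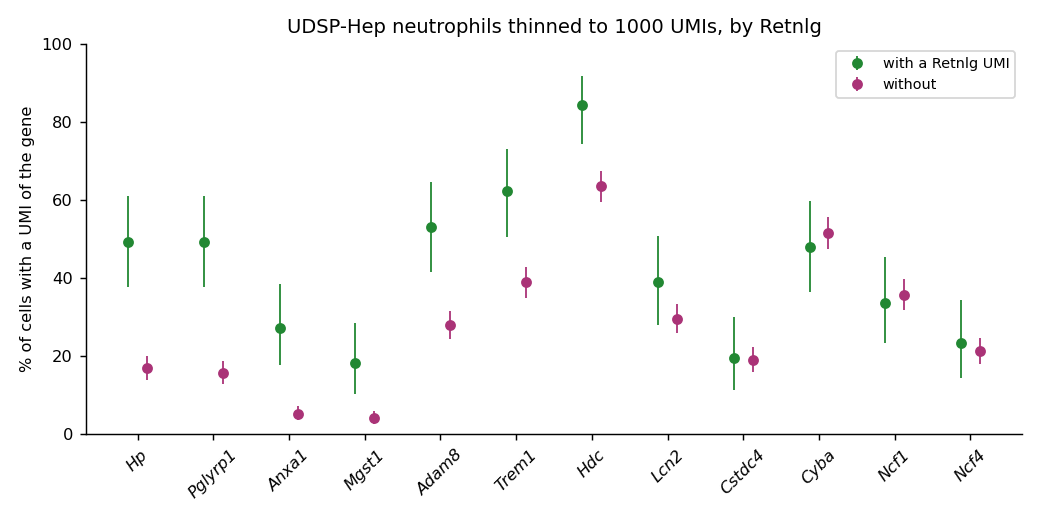
Share of UDSP-Hep neutrophils with a UMI of the gene, after thinning to 1000 UMIs, for 77 cells with and 609 cells without a Retnlg UMI, with exact binomial 95% intervals. Hp, Pglyrp1, Anxa1, Mgst1, Adam8, Trem1 and Hdc lie higher in cells with Retnlg with intervals apart, and Lcn2, Cstdc4 and the oxidase genes have overlapping intervals.

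Over the 686 thinned UDSP-Hep neutrophils, 22 members had enough detection to be paired, giving 231 pairs. The closest pair was Lcn2 with Slpi, at a Spearman rho of 0.46, followed by Mxd1 with Hdc (0.41), Trem1 with Hdc (0.30), Hp with Pglyrp1 (0.30) and Pglyrp1 with Retnlg (0.30). The most negative was Lcn2 with Hdc, at -0.17. These cells share 1 library and 1 depth, the counts are sparse, and the values describe this library only.

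A further comparison, within each library, asked which members set neutrophils apart from monocytes and macrophages of the same library. In PBS 15 of 26 tested members counted as higher in neutrophils than in monocytes and 5 as lower, against 8.96% and 13.7% of all genes. In UDSP-Hep 17 of 28 counted as higher and 7 as lower, against 16% and 46.1%. A total of 14 were higher in both libraries: Lcn2, Pglyrp1, Retnlg, Padi4, Mxd1, Trem1, Wfdc21, Stfa2l1, Cstdc4, G0s2, Slpi, Hdc, Ncf1 and Ncf4. The share of all genes higher in both libraries was not counted. Against macrophages 19 of 26 members in PBS and 20 of 28 in UDSP-Hep counted as higher (all genes 10.2% and 16.7%), and 3 and 5 as lower (all genes 16.1% and 51.9%). In this last contrast, in UDSP-Hep, 6 of 6 tested specific granule genes and 12 of 17 late genes were called higher, and of the 4 oxidase genes 2 were higher and 2 lower.

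**Figure D4:**
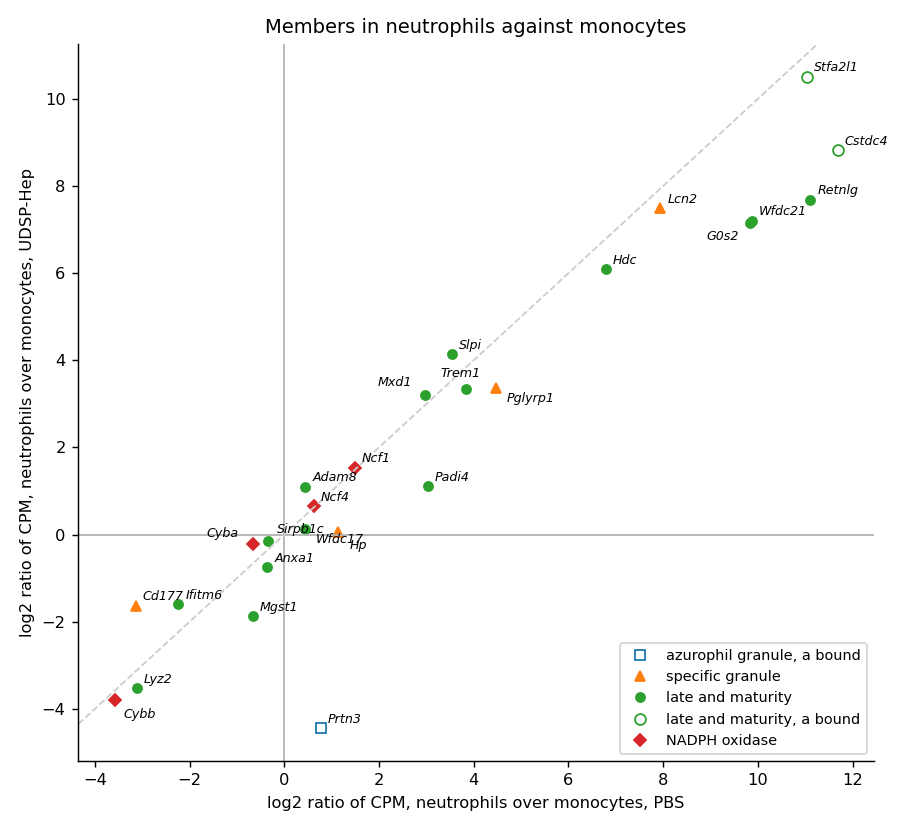
Log2 ratio of CPM in neutrophils over monocytes for each member with at least 20 summed UMIs in both libraries, PBS on the horizontal and UDSP-Hep on the vertical axis. The dashed line marks equal ratios, and open symbols mark ratios that are bounds because 1 class had no UMI. Retnlg, Cstdc4, Stfa2l1, G0s2, Wfdc21 and Lcn2 lie at the upper right, and Lyz2 and Cybb at the lower left.

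G0s2 stood at 2913 CPM in neutrophils and 3.20 CPM in monocytes of the PBS library, and at 2132 and 15.1 CPM in UDSP-Hep. Hdc stood at 2591 and 23.5 CPM in PBS, and at 2218 and 32.6 CPM in UDSP-Hep. Hdc was however far higher in cells gated as basophils and mast cells, at 14015 and 12222 CPM, and histamine synthesis is a known trait of those cells. Cstdc4 and Stfa2l1 had 58 and 37 UMIs in PBS neutrophils and 0 in PBS monocytes, so that they were at least 3294-fold and 2101-fold higher, taking 3 UMIs over all PBS monocytes as the floor. In UDSP-Hep monocytes they had 21 and 2 UMIs, with ratios of 452 (294 to 732) for Cstdc4 and 1459 (401 to 12087) for Stfa2l1. Lcn2 stood at 1023 and 4.17 CPM in PBS, a ratio of 246 (185 to 327), and at 2490.1 and 13.9 CPM in UDSP-Hep, a ratio of 179 (154 to 210).

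With the depth limit, Lyz2, Cybb, Cd177 and Ifitm6 were lower in neutrophils than in monocytes in both libraries. Lyz2 stood at 792 CPM in neutrophils and 6877 CPM in monocytes of PBS (ratio 0.115, 0.0933 to 0.141), and at 701 and 8098 CPM in UDSP-Hep (ratio 0.0866, 0.0818 to 0.0915). Cybb stood at 116 and 1386 CPM in PBS (ratio 0.0834, 0.0456 to 0.140) and at 122 and 1680.3 CPM in UDSP-Hep (ratio 0.0725, 0.0632 to 0.0828). The cytosolic subunits had the opposite direction: Ncf1 was 2.81-fold (2.03 to 3.79) and 2.90-fold (2.69 to 3.12) higher in neutrophils than in monocytes, and Ncf4 1.54-fold (1.0196 to 2.23) and 1.57-fold (1.41 to 1.73). The catalytic subunit gene was thus low and its cytosolic partner genes high in the same neutrophils. Cd177, known as a neutrophil antigen, was also lower, with 8.25 CPM in neutrophils and 72.6 CPM in monocytes of PBS, and 26.7 and 82.6 CPM in UDSP-Hep. With the cells above the depth limit put back, Cd177 was at 152 and 49.2 CPM in neutrophils of PBS and UDSP-Hep. In PBS that is above its level in monocytes. Ifitm6 was lower as well, at 74.3 and 352 CPM in PBS and 112 and 338 CPM in UDSP-Hep. Without the depth limit it was at 493 and 167 CPM in neutrophils of PBS and UDSP-Hep, so its direction against monocytes turned in PBS.

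**Figure D5:**
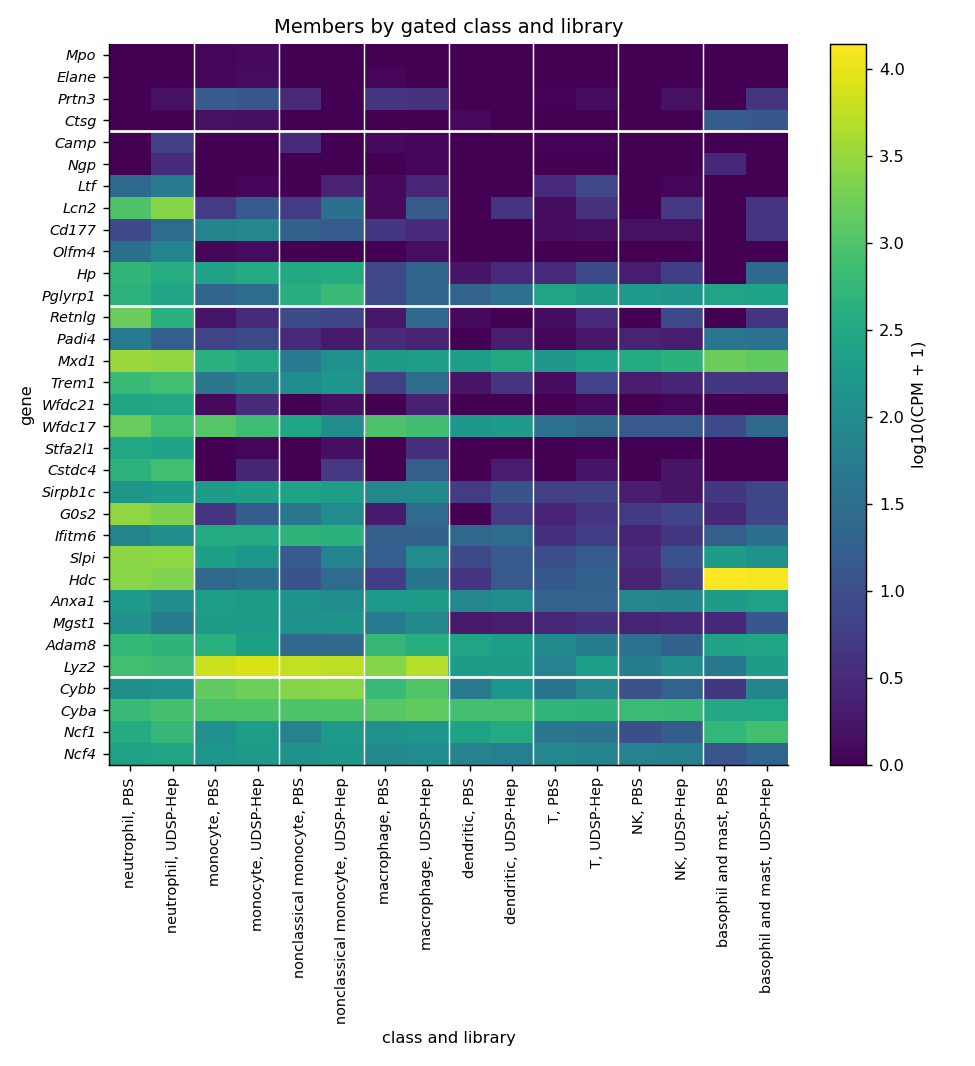
Level of the 33 genes, as log10 of CPM plus 1, in 8 gated classes of the PBS and UDSP-Hep libraries, with white lines between gene groups and between classes. Lcn2, Retnlg, Stfa2l1, Cstdc4, Wfdc21, G0s2 and Slpi are brightest in neutrophils, Lyz2 and Cybb in the 2 monocyte classes and macrophages, and Hdc in basophils and mast cells.

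Lymphocytes (T, NK and B cells) served as cells that should lack granule RNA. Of 24 members tested in PBS 23 counted as higher in neutrophils, and 27 of 27 in UDSP-Hep, against 10% and 15% of all genes, and 0 counted as lower in either library (all genes 18.7% and 57%). Retnlg stood at 0.319 and 4.18 CPM in lymphocytes, Lcn2 at 0.319 and 3.77 CPM and G0s2 at 1.91 and 5.82 CPM. Pglyrp1 was an exception in level, at 243 and 170.4 CPM in lymphocytes. It was also at 402 and 632 CPM in nonclassical monocytes, above its level in UDSP-Hep neutrophils. Eosinophils, another granulocyte, were too few to compare, with 1 and 38 gated cells.

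The last comparison set the members in monocytes and in macrophages of UDSP-Hep against PBS. In monocytes (2240 and 1288 cells) 7 of 25 tested members counted as higher and 2 as lower, against 7.43% and 3.46% of all genes. The higher ones were Lcn2, Retnlg, Trem1, Wfdc21, Cstdc4, G0s2 and Ncf1, and the lower ones Wfdc17 and Adam8. Most of the higher members were at trace levels. Lcn2 stood at 4.17 and 13.9 CPM, Retnlg at 0.727 and 2.11 CPM and G0s2 at 3.20 and 15.1 CPM. In macrophages (571 and 411 cells) 12 of 24 counted as higher and 0 as lower, against 9.87% and 4.4% of all genes, with Retnlg at 0.879 and 25.5 CPM, Slpi at 16.5 and 100.4 CPM and Lcn2 at 0.251 and 14.2 CPM. In the same comparison S100a8 and S100a9 together, which mark neutrophils, went from 4.17 to 172 CPM in monocytes and from 4.65 to 472 CPM in macrophages. In lymphocytes the pair went from 7.10 to 82.5 CPM, with 2867 CPM in the 68 B cells of UDSP-Hep against 29.3 CPM in T cells and 32.6 CPM in NK cells. Over all lymphocytes 10 of 22 members counted as higher and 1 as lower, against 9.16% and 7.29% of all genes. The part of neutrophil RNA outside neutrophils, or of mixed droplets, in these member values was not tested.

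A few members changed in these classes at levels well above a trace. Wfdc17 in monocytes stood at 1118 and 714 CPM (ratio 0.639, 0.624 to 0.655), and Adam8 at 426 and 228 CPM (ratio 0.535, 0.512 to 0.558). Ncf1 in monocytes stood at 126 and 199 CPM (ratio 1.57, 1.49 to 1.66), the same direction as in neutrophils. In macrophages Lyz2 stood at 2507 and 4882 CPM (ratio 1.95, 1.91 to 1.98) and Cybb at 628 and 1066 CPM (ratio 1.70, 1.64 to 1.76). Neutrophils had less Lyz2 and Cybb than either class in both libraries.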

How the data were processed

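The deposited values were counts of UMIs per gene and cell. The submitters' processing notes name Cell Ranger 7.0.0, Seurat and the build mm10 without saying which step each tool served. The members and lists were chosen with earlier results of these data known.

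Barcodes with fewer than 200 genes or 500 UMIs, or with 10% or more of their UMIs from mitochondrial genes, were left out. Scrublet's own threshold marked 1 cell in each library, so the highest doublet scores, 0.8% per 1000 barcodes, were removed instead (417 and 481 cells). A cell's class was the highest mean marker score, from log values of UMIs per 10000 divided by the 99th percentile of each marker, with a lead of at least 0.15 over the next class. That lead was chosen after several had been looked at, and 7 PBS and 85 UDSP-Hep neutrophils lay at a lead between 0.1 and 0.2. The depth limit of 4 times the class median was set after the member values of the cells above it were known. It decides the values of Camp, Ngp and Ltf, the call of Lcn2 and the number of members called lower (5 with it, 13 without). The Retnlg split, the motifs, the alternatives without the richest cell and without the depth limit and the minimum of 10 UMIs for a rich cell were also chosen after seeing the data.

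UMIs were summed per class and library. Intervals are exact Poisson for CPM, exact conditional binomial for ratios and Clopper-Pearson for shares, at 95%. A class at 0 takes a floor of 3 UMIs. All members are named, and genes of other lists were named from the fixed lists, by their call or role. The symbol BC100530 of the late list was not found. Values of some listed genes are not reported here. With 1 library per group no test across samples was possible. Promoter windows came from RefSeq GRCm38.p6 (30 of 33 members matched) and gene positions from GENCODE on GRCm38, the mm10 assembly. The calling steps were tested on simulated data. Python 3.11.15, scanpy 1.11.5, scipy 1.17.1, numpy 2.4.6, pandas 2.3.3 and matplotlib 3.10.9 were used.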

Additional observations from a re-analysis of the deposited data

Results flagged for a closer look

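Retnlg was lower in UDSP-Hep than in PBS neutrophils, at a log2 ratio of -1.88, and higher in UDSP-Hep in monocytes (1.54), macrophages (4.86) and lymphocytes (3.71). In these 3 classes it reached at most 25.5 CPM, and the neutrophil markers S100a8 and S100a9 were higher in UDSP-Hep in the same 3 classes. Pglyrp1 had a log2 ratio of -0.74 in neutrophils and 1.52 in macrophages. Mgst1 had one of -1.20 in neutrophils and 0.87 in macrophages. After thinning to 1000 UMIs, Pglyrp1 was found in only 0.529% of PBS and 0.735% of UDSP-Hep macrophages. The neutrophil calls of Pglyrp1 and Mgst1 were lost with thinned cells and without the richest cell of each library. These values were picked out because a gene differed in opposite directions in 2 classes. The difference between classes was not tested, and each group is 1 library.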

How the results depend on the processing

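No paired analysis was possible because each group is 1 library, and no replicate could be left out for the same reason. Of the members tested in neutrophils, Retnlg kept its call in 14 of 14 alternatives and Lcn2 in 13. Wfdc17 and Mgst1 kept it in 12, Ncf1, Cstdc4 and Padi4 in 11 and Pglyrp1 in 10. Padi4 had too few UMIs to be tested in 2 of the settings that ended its call. The median log2 ratio of the members, 0.08, ranged from -0.30 to 0.09. With cells thinned to 1000 UMIs 3 members were lower, Retnlg and Wfdc17 again and Hp as an added call. Median-of-ratios scaling, which moved the median gene by 0.18 (log2), gave 1 higher and 8 lower, and a fold of 2 gave 1 higher and 3 lower. Without the upper limit on depth, an alternative chosen after seeing the data, 13 were lower. Without the richest cell of each library, also chosen after seeing the data, 5 were higher and 2 lower. The share of all genes called was counted for the main setting only, not for the alternatives. The number lower in PBS neutrophils went from 5 to 3 against monocytes and from 3 to 1 against macrophages without the depth limit. Against UDSP-Hep macrophages it went from 5 to 2 with median-of-ratios scaling and to 2 with a fold of 2. The UDSP-Hep share of neutrophils was 8.41% with a stricter gate and 11.6% from clusters made without the members. With doublets kept, 11 members were higher in monocytes in UDSP-Hep in place of 7, and 1 was lower in macrophages in place of 0 with the stricter gate and with median-of-ratios scaling. The causes were not tested. Calls under equal cell weights and with the lymphocyte level subtracted used the main interval, moved to the new ratio. Precision was limited by the 121179 UMIs of the 51 PBS neutrophils, where the floor of 3 UMIs is 24.8 CPM against 1.67 CPM in UDSP-Hep.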
